A study of Homo sapiens with 54 samples.

Results

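CD38 and BST1 (also called CD157) are paralogous ectoenzymes that consume NAD at the cell surface. Both were represented by 1 probe set each, taken as every probe set whose only gene symbol was CD38 or BST1, so the pair made up 2 of the 19460 probe sets with 1 symbol and 2 of 18417 genes. They were followed on 54 arrays from 9 human cell lines, with 2 arrays for each line and time. Cells treated for 8 h or 36 h with calcitriol, the hormonal form of vitamin D, were set against untreated cells of the same line at 0 h. The lines were 4 lymphoblastoid lines (GM07019, GM07348, GM10854 and GM12878, which are B cells immortalised with Epstein-Barr virus), the promyelocytic leukaemia line HL60, the erythroleukaemia line K562, the fibroblasts Ag09309 and Ag09319, and the hepatoma line HEP-G2. The titles number the 2 arrays of a group with the tag BR, which they do not spell out, and they name no cultures. Standard errors and p-values for a single line are therefore read as the spread between arrays only. Each line's only untreated samples are those at 0 h, so time in culture cannot be told apart from calcitriol. The pair was chosen by its measured changes in earlier results of these arrays, among them the higher CD38 of treated lymphoblastoid lines, and the levels and changes of both genes are therefore given as descriptions without a test.

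CD38 is a transmembrane enzyme that turns NAD into ADP-ribose and cyclic ADP-ribose, messengers that act on calcium channels, and it also serves as a surface marker of activated B cells and plasma cells. BST1 is held at the surface by a GPI anchor, was found on bone marrow stromal cells, and is carried by monocytes and neutrophils, where it works with the integrin CD11b/CD18. The vitamin D receptor binds calcitriol and acts as a transcription factor, and vitamin D is known to drive the maturation of HL60 cells towards monocytes. The genes are neighbouring protein-coding genes on chromosome 4, where the RefSeq annotation of GRCh38.p14 places BST1 at bases 15703065 to 15774173 and CD38 at bases 15778328 to 15853232, with 4154 bases between them. No other annotated gene starts in that gap (0), and 3 that code for no protein start within BST1.

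The start of CD38 is shown, the member that matched the RefSeq promoter table (1 of 2). The 300 bases from chr4:15778078-15778377 (RefSeq, GRCh38.p14, plus strand) run from 250 bases before to 50 bases after the start of the gene, and the capitals mark the single match to a half-site of the vitamin D receptor.
CD38: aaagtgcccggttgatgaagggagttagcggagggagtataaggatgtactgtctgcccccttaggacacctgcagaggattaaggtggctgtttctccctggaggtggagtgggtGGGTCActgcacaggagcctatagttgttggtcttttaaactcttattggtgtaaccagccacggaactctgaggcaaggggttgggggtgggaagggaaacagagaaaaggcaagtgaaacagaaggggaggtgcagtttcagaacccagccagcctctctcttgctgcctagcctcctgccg
Both strands were searched for the half-site AGGTCA, for the form GGGTCA that is marked here, for the form AGTTCA, and for the form GGTTCA. The match began 134 bases before the start, and 38.6% of 35116 promoters of this length held at least 1. No direct repeat of half-sites with a spacing of 3 bases was found in this window (0 matches), against 0.074% of promoters that held one. The window held 1 CCAAT (34.6% of promoters), 0 TATAAA (11.5%) and 0 GGGCGG (45.0%).

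Array medians lay between 4.98 and 5.31 on the log2 scale of the deposited values, and the 2 arrays of a group correlated with a median r of 0.985. In 3 groups the arrays agreed less well, and 1 array of each stood apart: K562 at 36 h (array 1), HEP-G2 at 0 h (array 2) and Ag09319 at 8 h (array 2). Markers followed the labelled cell types. The mean B cell marker level was 7.53 to 8.31 on the arrays of the lymphoblastoid lines and at most 5.43 on those of HL60, K562, Ag09319 and HEP-G2, fibroblast markers averaged 8.85 to 10.1 in the fibroblasts, hepatocyte markers 10.2 to 10.8 in HEP-G2, erythroid markers 8.25 to 8.79 in K562 and promyelocyte markers 8.55 to 9.28 in HL60. The 0 h arrays of Ag09309 went against this pattern. MS4A1, the B cell surface protein CD20, stood at 8.15 and 8.07 on those 2 arrays, against 2.85 to 3.38 on the 4 treated arrays of the same line, so each change in Ag09309 rests on 0 h samples that carried B cell transcripts.

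CD38 was higher after calcitriol in all 4 lymphoblastoid lines. In GM07348 the arrays read 7.76 and 7.61 at 36 h, against 5.38 and 5.29 at 0 h. In GM07019 they read 8.12 and 7.59 at 36 h, against 5.91 and 5.17 at 0 h. The treated arrays of both lines lay above every 0 h array of their line. GM12878 gave 8.65 and 8.45 at 36 h, against 6.76 and 6.62 at 0 h, and GM10854 gave 8.42 and 8.35 at 36 h, against 6.997 and 6.27 at 0 h. These lines began higher and ended higher than GM07019 and GM07348, and again no arrays overlapped.

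**Figure D1:**
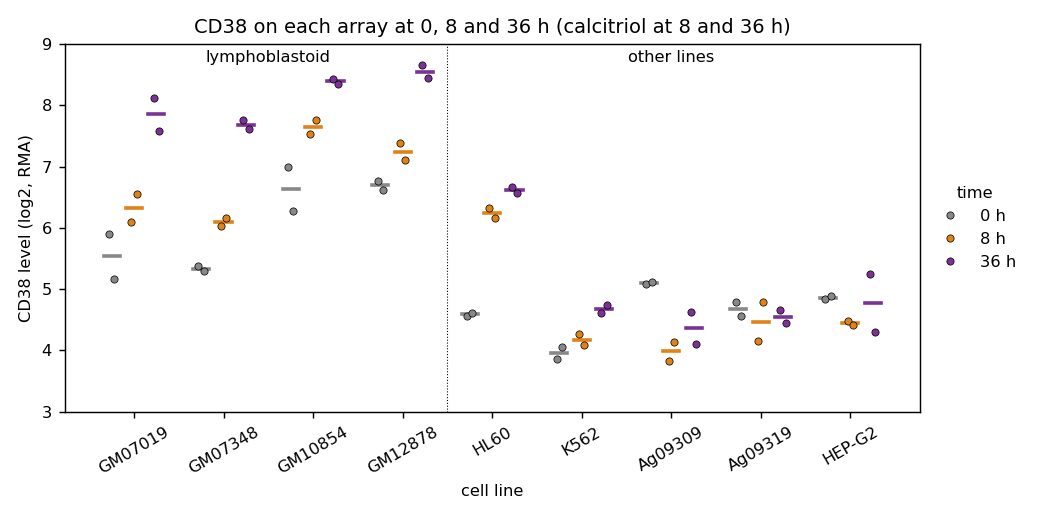
CD38 level (log2, y axis) on each array (points) with the mean of the 2 arrays (bars) in 9 cell lines (x axis) at 0, 8 and 36 h. All 8 lymphoblastoid arrays at 36 h lay between 7.59 and 8.65, above the 8 at 0 h, and HL60 reached 6.61 on average at 36 h.

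The 36 h minus 0 h difference of CD38 was 2.35 in GM07348, 2.31 in GM07019, 1.86 in GM12878 and 1.76 in GM10854 on the log2 scale, each with a standard error of 0.25. For a single line that error is pooled over all 27 groups, so it is the same in every line and does not show the line's own spread. With the line as replicate, the mean was 2.07 ± 0.12 (SE, n = 4 lines), a level 4.20-fold higher at 36 h. This error comes from a fit of line and time and is pooled over times, so it is the same in each comparison. The 8 h difference averaged 0.78 ± 0.12 (1.71-fold), and 36 h lay above 8 h by 1.29 ± 0.12. The SD between the 4 lines was 0.31 for 36 h minus 0 h, 0.19 for 8 h minus 0 h and 0.39 for 36 h minus 8 h. Thus 29.4% of the 36 h difference was present at 8 h in GM12878, 32.3% in GM07348, 34.1% in GM07019 and 57.8% in GM10854. The 8 h difference depended on the array in 2 lines, at 0.19 from replicate 1 alone and 1.38 from replicate 2 alone in GM07019, and at 0.54 and 1.49 in GM10854. Treated and 0 h arrays did not overlap in 4 of 4 lines at 36 h, a state that 1.12% of all probe sets shared, and in 4 of 4 lines at 8 h, which 0.17% shared. The 36 h arrays also lay above the 8 h arrays in all 4 lines, against 0.555% of probe sets.

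The mean levels of markers of B cells and plasma cells, cell types on which CD38 is a surface marker, were also higher at 36 h in these lines. The mean of the 7 measured B cell markers was 8.31 and 8.29 in GM07019 at 36 h, against 7.93 and 7.70 at 0 h, and 8.13 and 8.04 in GM12878 at 36 h, against 7.77 and 7.76 at 0 h. The mean of the 5 plasma cell markers was 8.59 and 8.504 in GM12878 at 36 h, against 8.12 and 8.04 at 0 h, and 8.58 and 8.61 in GM10854 at 36 h, against 8.42 and 8.35 at 0 h. In each of the 4 lines the 36 h arrays lay above the 0 h arrays on both means. No share over other gene sets was computed for this. CD79A, given again below, is itself one of the B cell markers and had the largest B cell marker difference in each line, at 1.13 to 1.47. Gene by gene, 5 or 6 of 7 B cell markers were higher at 36 h, with medians of 0.10 to 0.60, and 3 or 4 of 5 plasma cell markers, with medians of 0.10 to 0.43. The median of all probe sets lay between -0.03 and 0.03 in these lines. The largest difference of a plasma cell marker was 0.84 to 1.27, so the means lean on single genes. At 8 h 7 of 7 B cell markers were higher in GM07019 and GM10854, and 2 of 7 in GM07348 and GM12878. The part of these markers in the CD38 difference was not tested.

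HL60 showed a CD38 difference of like size that was mostly present early. CD38 read 4.57 and 4.61 at 0 h, 6.33 and 6.16 at 8 h, and 6.66 and 6.56 at 36 h. The difference from 0 h was 1.65 ± 0.25 at 8 h and 2.03 ± 0.25 at 36 h (SE, n = 2 arrays in each group), or 4.07-fold at 36 h. At 8 h it had reached 81.6% of its 36 h size. The lymphoblastoid percentages were lower, and this contrast in timing was not tested.

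In K562 CD38 was low throughout, at 3.86 and 4.06 at 0 h, 4.27 and 4.09 at 8 h, and 4.61 and 4.73 at 36 h. The 36 h difference was 0.71 ± 0.25, while the median of all probe sets was itself higher by 0.13 in that comparison. After quantile normalisation the CD38 difference was 0.57. No arrays of 36 h and 0 h overlapped, a state for which no share over all probe sets is given in a single line.

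CD38 did not lie above its 0 h level in the fibroblasts or HEP-G2. Ag09319 gave 4.65 and 4.45 at 36 h, against 4.79 and 4.57 at 0 h, with overlapping arrays and a difference of -0.13 ± 0.25. HEP-G2 gave 5.25 and 4.31 at 36 h, against 4.84 and 4.88 at 0 h, so its 36 h mean (difference -0.08 ± 0.25) combines an array above and an array below both untreated ones. At 8 h both HEP-G2 arrays, 4.48 and 4.42, were below those at 0 h. The deposited table carries no detection calls, so it cannot be told whether these low levels lie above background.

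In Ag09309 CD38 was lower at both 8 h and 36 h. It read 5.08 and 5.11 at 0 h, 3.84 and 4.13 at 8 h, and 4.62 and 4.10 at 36 h, which gave differences of -1.11 ± 0.25 at 8 h and -0.74 ± 0.25 at 36 h. The 36 h value was -0.46 from replicate 1 alone and -1.01 from replicate 2 alone. B cell transcripts were also lower than at 0 h at both times. From 8 h to 36 h the mean of the B cell markers fell from 4.70 to 4.54. CD38 differed by 0.38 between these times, a sign that turned without replicate 1. All 7 measured B cell markers were lower at 36 h, with a median of -1.16 and a lowest of -5.13 for MS4A1, and their mean was 4.56 and 4.52 on the 36 h arrays, against 6.09 and 6.09 at 0 h. Fibroblast markers went the other way, all 8 of 8 being higher at 36 h with a median of 0.41. The part of these B cell transcripts in the CD38 difference was not tested, and in bulk samples fewer cells of a type and less RNA per cell cannot be told apart.

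Counted over the 9 lines, treated CD38 arrays lay wholly above the 0 h arrays in 6 lines at 36 h (1.7% of probe sets did so in at least 6) and in 6 lines at 8 h (0.216%). They lay wholly below in 1 line at 36 h, as did 80.4% of probe sets in at least 1, and in 2 lines at 8 h, as did 45.6% in at least 2. The mean over 9 lines was 1.12 ± 0.25 at 36 h (SE of the fit of line and time, n = 9 lines), and 1.35 without Ag09309. That error is pooled over times and does not show the spread of the line differences, which ran from -0.74 to 2.35. Their SD was 0.31 in the lymphoblastoid lines and 1.06 in the other 5. The lymphoblastoid lines exceeded the other 5 by 1.71 ± 0.40 in their 36 h difference, or by 1.44 without Ag09309 and 2.13 without HL60.

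The order of CD38 levels shifted with time. At 0 h GM12878 (6.69) and GM10854 (6.63) led and overlapped each other, followed by GM07019 (5.54) and GM07348 (5.33), which also overlapped. Ag09309 (5.10) and HEP-G2 (4.86) came next without overlap, then Ag09319 (4.68) and HL60 (4.59), which overlapped, and K562 was lowest at 3.96. The place of Ag09309 at 0 h rests on the arrays that carried B cell transcripts. At 8 h HL60 (6.24) overlapped both GM07019 (6.33) and GM07348 (6.09). At 36 h the lymphoblastoid lines held the first 4 places, HL60 came after them at 6.61, apart from its neighbours on both sides, and HEP-G2, K562, Ag09319 and Ag09309 overlapped in turn between 4.78 and 4.36.

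BST1 had another distribution. It was highest in HL60 and the fibroblasts, and its 36 h differences in the lymphoblastoid lines lay between -0.13 and 0.02. At 36 h the 8 lymphoblastoid arrays spanned 4.61 to 5.17 with a median of 4.89, against 4.74 to 5.13 with a median of 4.96 at 0 h. The mean difference was -0.04 ± 0.08 (SE, n = 4 lines) at 36 h and -0.13 ± 0.08 at 8 h, and the 36 h and 0 h arrays overlapped in every one of the 4 lines.

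**Figure D2:**
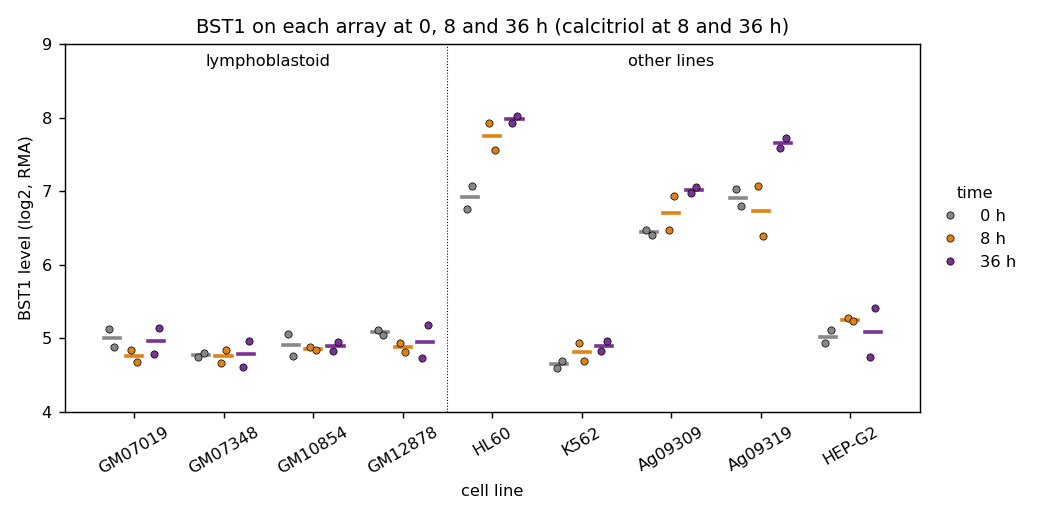
BST1 level (log2, y axis) on each array (points) with the mean of the 2 arrays (bars) in 9 cell lines (x axis) at 0, 8 and 36 h. HL60, Ag09309 and Ag09319 lay above 6.38 on all their arrays, and the 8 lymphoblastoid arrays at 36 h lay between 4.61 and 5.17.

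In HL60 BST1 read 6.76 and 7.07 at 0 h, 7.93 and 7.56 at 8 h, and 7.93 and 8.02 at 36 h. All treated arrays lay above the untreated ones, again without a share over all probe sets for a single line. The difference was 0.83 ± 0.20 at 8 h and 1.06 ± 0.20 at 36 h, a 2.09-fold higher level, and 78.5% of it was present at 8 h. The 8 h value was 1.17 from replicate 1 alone and 0.49 from replicate 2 alone. HL60 was the line in which both genes differed by more than 1 log2 unit at 36 h.

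BST1 was also higher at 36 h than at 0 h in the fibroblasts, as were most fibroblast markers. Ag09319 gave 7.58 and 7.72 at 36 h, against 7.02 and 6.80 at 0 h, a difference of 0.74 ± 0.20. Ag09309 gave 6.98 and 7.06 at 36 h, against 6.47 and 6.40 at 0 h, a difference of 0.58 ± 0.20. Neither pair of groups overlapped, a state for which no share over all probe sets is given in a single line. In Ag09319 at 8 h the arrays read 7.08 and 6.38, and the lower one is the array that stood apart, so the 8 h difference was -0.18 ± 0.20 with it and 0.17 without it. In Ag09309 BST1 and CD38 differed in opposite directions from the same 0 h arrays, which carried B cell transcripts. Fibroblast markers were higher at 36 h in 6 of 8 in Ag09319 (median 0.33) and in 8 of 8 in Ag09309 (median 0.41). The part of these markers and of the B cell transcripts in the BST1 differences was not tested.

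K562 and HEP-G2 stayed at the low end. K562 gave 4.82 and 4.97 at 36 h, against 4.60 and 4.69 at 0 h, a difference of 0.25 ± 0.20 that was 0.11 after quantile normalisation. HEP-G2 gave 4.75 and 5.42 at 36 h, against 4.93 and 5.11 at 0 h, with overlap. Over the 9 lines, treated BST1 arrays lay wholly above the 0 h arrays in 4 lines at 36 h (13.1% of probe sets did so in at least 4) and in 3 lines at 8 h (18.5% in at least 3), so such counts were common among probe sets. They lay wholly below in 2 lines at 8 h (45.6% in at least 2) and in 0 at 36 h. The mean difference over 9 lines was 0.28 ± 0.11 at 36 h (SE of the fit of line and time), with line differences from -0.13 to 1.06. The lymphoblastoid lines lay below the other 5 by 0.58 ± 0.17 on that measure.

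**Figure D3:**
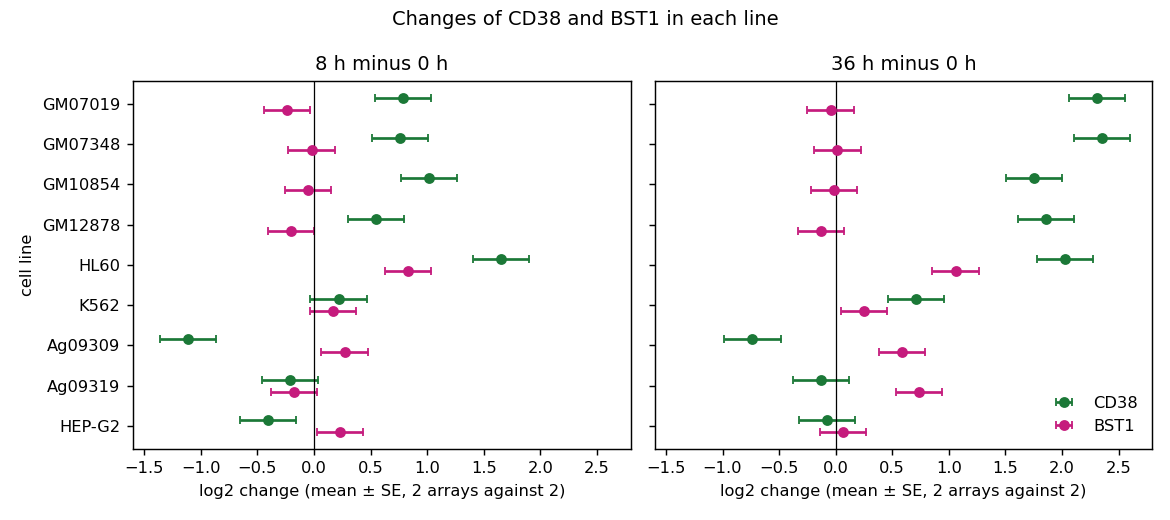
Log2 difference from 0 h (x axis, 2 arrays against 2, mean ± SE pooled over all groups) of CD38 and BST1 in each cell line (y axis) at 8 h (left) and 36 h (right). At 36 h CD38 lay between 1.76 and 2.35 in the lymphoblastoid lines, where BST1 lay between -0.13 and 0.02, and HL60 had both genes above 1.

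In the order of levels at 0 h, HL60 (6.91) and Ag09319 (6.91) overlapped at the top, Ag09309 (6.44) followed apart from both neighbours, and the other 6 lines lay between 5.08 and 4.64. At 36 h HL60 (7.97), Ag09319 (7.65) and Ag09309 (7.02) were each apart from the next, and the other 6 lines overlapped in turn between 5.08 and 4.79.

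The genes around the pair were read for comparison, as the 5 measured genes on each side. Before BST1 these were CPEB2, C1QTNF7, CC2D2A, FBXL5 and FAM200B, and after CD38 they were FGFBP1, FGFBP2, PROM1, TAPT1 and TAPT1-AS1. In the lymphoblastoid lines at 36 h 0 of 10 passed limma's test at an adjusted p of 0.05, against 1.14% of all probe sets, and 3 had an unadjusted p under the same value. The nearest to passing was CPEB2, an RNA-binding regulator of translation, at 0.29 ± 0.08 (adjusted p = 0.1, limma). In HL60 0 of 10 passed, against 0.868% of probe sets, and 3 had an unadjusted p under that value. FBXL5, an iron-sensing ubiquitin ligase subunit, came nearest at 0.74 ± 0.23 (adjusted p = 0.149, limma).

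**Figure D4:**
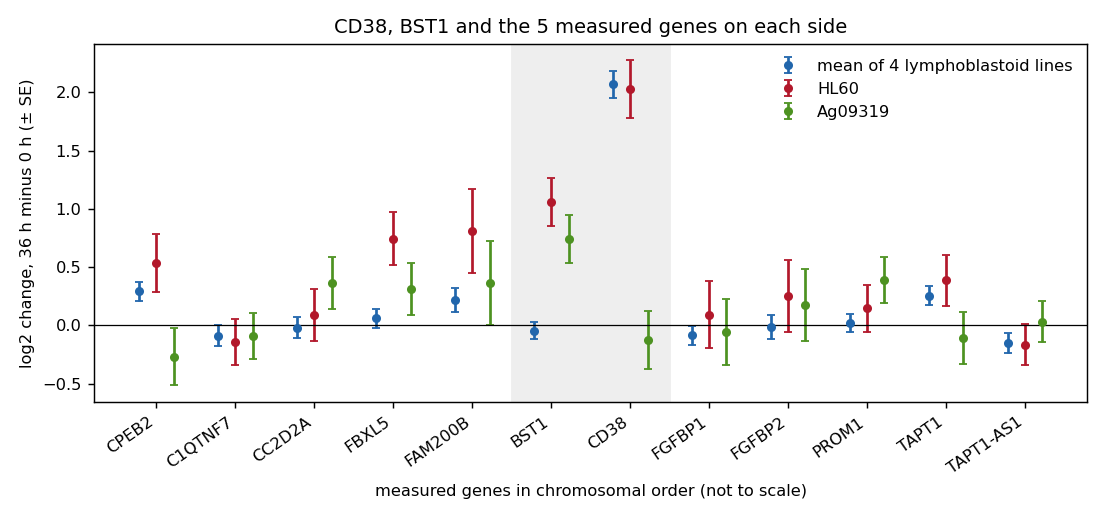
Log2 difference at 36 h from 0 h (y axis, ± SE) of BST1, CD38 (grey band) and the 5 measured genes on each side, in chromosomal order and not to scale, for the mean of 4 lymphoblastoid lines, HL60 and Ag09319. CD38 stood at 2.07 in the lymphoblastoid mean and 2.03 in HL60, and the 10 neighbours lay between -0.17 and 0.81 in these 2.

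In the other lines neighbours passed the 36 h minus 0 h test in 2. PROM1, the stem cell surface protein CD133, rose by 1.07 ± 0.20 in HEP-G2 at 36 h (adjusted p = 0.00135, limma, 1.84% of probe sets called). C1QTNF7, a secreted protein of the C1q and TNF family, rose by 0.78 ± 0.20 (adjusted p = 0.0131) and CC2D2A, a protein of the ciliary transition zone, by 0.78 ± 0.22 (adjusted p = 0.0311) in Ag09309 at 36 h, where 4.91% of probe sets were called. None of these held when replicate 1 was left out, and the Ag09309 values share its 0 h arrays. In the 36 h minus 8 h comparison 4 of 10 rose in Ag09319, namely FAM200B (1.05), CC2D2A (1.03), TAPT1 (0.72) and FBXL5 (0.66), where 18% of all probe sets were called, and all 4 calls were lost without the 3 arrays that stood apart. PROM1 rose by 0.80 in HEP-G2 in that comparison (adjusted p = 0.0229, limma, 1.65% called).

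Other genes were taken as 5 lists by function, 69 of 73 of them measured. The lists were extracellular nucleotide handling, NAD synthesis and salvage, intracellular NAD consumers, calcium channels and readers of CD38 products, and surface partners. In the lymphoblastoid lines at 36 h 2 of 69 rose and 0 fell (1.06% of all probe sets were called higher), and the median of the lists was 0.02, beside -0.01 for all probe sets. Both were among the 9 measured surface partners. CD79A, the signalling chain of the B cell receptor, rose by 1.30 ± 0.11 (adjusted p = 2.31e-06, limma, n = 4 lines). CR2, the complement receptor CD21, rose by 0.77 ± 0.11 (adjusted p = 0.000555). Both were known from earlier results of these arrays and are not independent evidence.

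CD79A had 9.51 and 9.42 in GM07019 at 36 h, against 8.01 and 7.99 at 0 h, and its 36 h arrays lay above its 0 h arrays. It also passed in each line alone, with 1.47 in GM07019 (0.0514% of probe sets called), 1.32 in GM07348 (0.118%), 1.28 in GM12878 (0.0514%) and 1.13 in GM10854 (0.0668%), although each single-line call was lost when either replicate was left out. None of the 10 measured genes of extracellular nucleotide handling, the 19 of NAD synthesis and salvage, the 18 intracellular NAD consumers or the 13 calcium channels and readers of CD38 products passed in the lymphoblastoid lines, and 14 of all 69 genes had an unadjusted p under 0.05. The nearest to passing in each of these lists were ADORA1, an adenosine receptor, at -0.24 ± 0.09 (adjusted p = 0.259, limma), KYNU, kynureninase of NAD synthesis from tryptophan, at 0.38 ± 0.11 (0.119), PARP14, an ADP-ribosyltransferase, at 0.29 ± 0.10 (0.178), and FKBP1B, a subunit of the ryanodine receptor complex, at -0.19 ± 0.08 (0.279). At 8 h 0 of 69 passed, against 0.0257% of all probe sets, and 3 had an unadjusted p under 0.05. The nearest to passing were CD79A, at 0.27 ± 0.11, and ART3, of the ADP-ribosyltransferase family, at 0.19 ± 0.08 (adjusted p = 1.0 for both, limma).

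In HL60 2 of 69 rose and 0 fell at 36 h (0.868% of probe sets called), and these were the integrin chains that partner BST1. ITGAM, the CD11b chain, had 7.97 and 7.93 at 36 h, against 6.15 and 6.27 at 0 h, and rose by 1.74 ± 0.21 (adjusted p = 4.93e-07, limma). ITGB2, the CD18 chain, had 9.52 and 9.27 at 36 h, against 8.00 and 8.32 at 0 h, and rose by 1.23 ± 0.16 (adjusted p = 5.02e-06), a call lost without replicate 1 (adjusted p = 0.0807). Both also passed at 8 h, by 1.06 (adjusted p = 0.00662) and 0.79 (adjusted p = 0.0151), against 0.236% of probe sets called, and both 8 h calls were lost when either replicate was left out. Monocyte markers were higher at 36 h too. CD14 had 5.98 and 5.99 at 0 h, 8.72 and 8.41 at 8 h, and 10.2 and 9.97 at 36 h. At 8 h, when most of the CD38 and BST1 differences were present, 2 of 6 monocyte markers were higher and 4 lower, with a median of -0.03. At 36 h all 6 of 6 were higher with a median of 0.35, and all 6 of 6 promyelocyte markers were lower with a median of -0.38. ITGAM is itself one of these monocyte markers. Their part in the CD38 and BST1 differences was not tested.

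**Figure D5:**
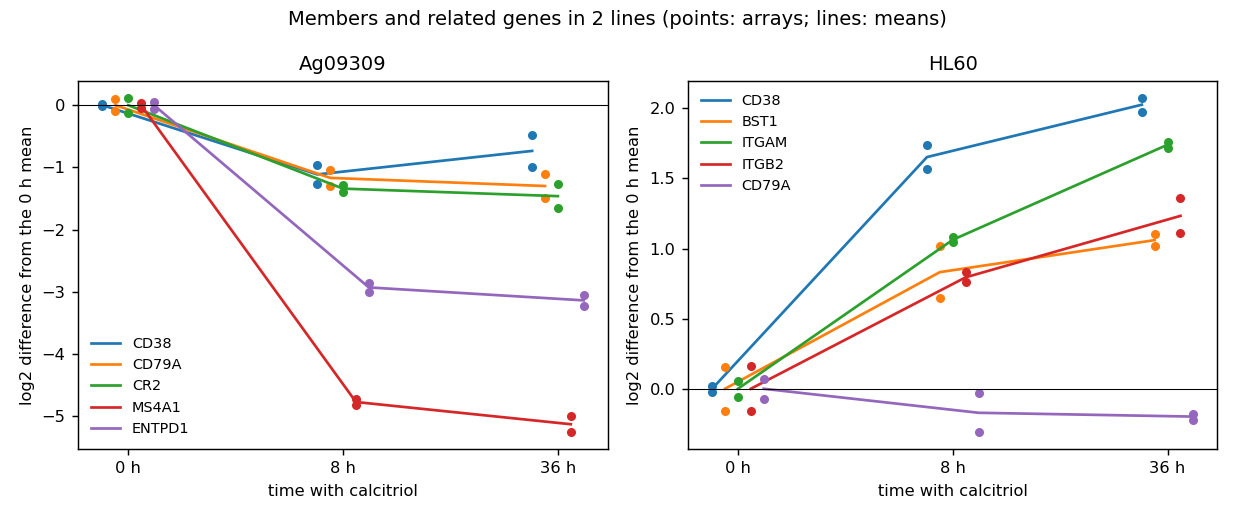
Log2 difference from the 0 h mean (y axis) at 0, 8 and 36 h (x axis) on each array (points) and as means (lines), for CD38 with B cell genes and ENTPD1 in Ag09309 (left), and for CD38, BST1, ITGAM, ITGB2 and CD79A in HL60 (right). In Ag09309 MS4A1 was lower by 5.13 and ENTPD1 by 3.14 at 36 h, and in HL60 ITGAM was higher by 1.74.

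Of the 10 measured genes of extracellular nucleotide handling, 2 passed at 36 h in Ag09309 (ADA and ENTPD1), 1 in Ag09319 (ENTPD1) and 2 in HEP-G2 (ENPP1 and NT5E), with list medians of -0.02, 0.13 and -0.004. ENTPD1, the ectonucleotidase CD39, had 3.72 and 3.90 in Ag09309 at 36 h, against 7.01 and 6.89 at 0 h, and fell by 3.14 ± 0.16 (adjusted p = 3.98e-17, limma). ENTPD1 stood at 8.67 to 9.40 on the 0 h arrays of the lymphoblastoid lines, and at 7.10 and 7.48 in HL60 at 0 h, where MS4A1 stood at 3.55 and 3.05. In all, 7 of 69 fell and 1 rose in Ag09309 at 36 h (4.91% of probe sets called). Besides ENTPD1 those that fell were ADA, adenosine deaminase (-1.01), KYNU (-1.28), CD79A (-1.30), CD79B (-0.67), CR2 (-1.46) and ITGB2 (-0.65), and the one that rose was TPCN1, a two-pore calcium channel (0.66). The calls of ENTPD1, ADA and CD79A held when either replicate was left out, and the other 5 were lost without replicate 2. The part of the B cell transcripts at 0 h in these differences was not tested.

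In Ag09319, whose 0 h arrays held MS4A1 at 3.02 and 3.50, 3 of 69 rose at 36 h and 0 fell (4.49% of probe sets called). ENTPD1 rose by 1.29 ± 0.16 (adjusted p = 1.01e-06, limma), PARP9, an ADP-ribosyltransferase of the interferon response, by 0.76 ± 0.20 (adjusted p = 0.0186) and NMRK1, nicotinamide riboside kinase, by 0.99 ± 0.30 (adjusted p = 0.0488). All 3 calls were lost when the fit held only the arrays of this line. That of PARP9 was also lost without replicate 2, and that of NMRK1 without either replicate, after median centring and after quantile normalisation. In HEP-G2 2 of 69 rose at 36 h and 0 fell (1.84% called). NT5E, the 5′-nucleotidase CD73 that makes adenosine, rose by 1.66 ± 0.26 (adjusted p = 0.000139) and ENPP1, a pyrophosphatase that cleaves NAD and ATP, by 1.59 ± 0.27 (adjusted p = 0.000515), both lost without replicate 2. In K562 0 of 69 passed at 36 h (0.0411% called), and 10 had an unadjusted p under 0.05.

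Across the 9 lines 0 of 69 passed limma's test at 36 h (0.468% of probe sets called), with 10 at an unadjusted p under 0.05. In the contrast of lymphoblastoid with other lines 0 of 69 passed (0.0103% called), with 6 at an unadjusted p under 0.05.

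The genes whose differences followed each member most closely were sought over 18 points, the 8 h and 36 h differences in 9 lines, as a description only, since points share lines and 0 h arrays. For CD38 they were VPS37B, a subunit of the endosomal sorting complex (Pearson's r = 0.89), the kinase HIPK2 (0.89), the receptor TLR6 (0.86), the GTPase RAC2 (0.86) and the adaptor TRAF3 (0.84). VPS37B differed by 0.60 to 0.74 at 36 h in the lymphoblastoid lines and by 0.69 in HL60, against -0.17 in Ag09309 and -0.23 in Ag09319. BST1 ranked 8980 on this measure, at -0.05.

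For BST1 the closest were the repressor BCL6 (r = 0.90), CYP24A1 (0.87), the kinase MAP3K12 (0.86), the surface receptor CDON (0.85) and the zinc finger protein ZNF438 (0.84). CYP24A1, the enzyme that degrades calcitriol and a textbook target of its receptor, differed by 6.44 in HL60, 6.08 in Ag09309 and 5.24 in Ag09319 at 36 h, and by 0.68 to 1.38 in the lymphoblastoid lines. The 3 lines with the largest CYP24A1 differences at 36 h were the 3 with the largest BST1 differences. CYP24A1 was picked by its likeness to these same BST1 values, so this match is no separate evidence. The Ag09309 values rest on 0 h arrays that carried B cell transcripts.

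Over the 27 group means the closest to CD38 were TLR6 and the peroxisomal transporter ABCD2 (both 0.90), SLCO5A1 and DENND11 (both 0.89) and the G protein subunit GNA13 (0.88). For BST1 they were OSBPL1A (0.97), IMPACT (0.95), SLCO3A1 (0.95), RP2 (0.94) and the receptor TLR4 (0.94). Between CD38 and BST1 the value was -0.33.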

How the data were processed

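RNA of the 9 lines was hybridised to 54 arrays of the Affymetrix Gene 1.0 ST design. The authors deposited log2 levels made by RMA in Affymetrix Expression Console 1.0, per the submitters' processing notes. The genome build and calcitriol dose are not given in the sources used here. Of 33297 probe sets, 21214 are in the probe-to-gene table, 1754 of them with several symbols and 19460 with 1, and the latter were tested without a filter. The titles of GM10854 name another line, and the cell line field was used.

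Single lines were tested in 1 limma fit of 27 groups (27 residual and 8.89 prior degrees of freedom). Means over lines took the line as replicate (6 residual degrees of freedom for 4 lines, 16 for 9). Their standard errors are pooled over times and moderated across probe sets. P-values were two-sided with Benjamini-Hochberg adjustment over all 19460 probe sets and a threshold of 0.05 (limma 3.58.1, R 4.3.3, Python 3.11.15). No arrays were identical (0 pairs). The number of arrays limits the precision. With 2 arrays against 2, lack of overlap in a single line is weak on its own, and shares over all probe sets are given for counts of lines only.

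The members and all lists were chosen with earlier results of these data known. Named were the members, called genes of each list up to the 4 largest (all where a count is spelled out), the nearest to passing where none was called, the neighbouring genes, and the 5 probe sets most like each member. MS4A1 and CD14 were named after their values were seen. Alternatives were quantile normalisation, median centring, a filter on low levels, a replicate block, leaving out arrays or lines, and fits on the arrays of a line. The fits were tested on simulated data.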

Additional observations from a re-analysis of the deposited data

Results flagged for a closer look

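CD38 in HL60 lay far from the other 4 non-lymphoblastoid lines, at 6.24 at 8 h and 6.61 at 36 h. These were 2 of 24 sets of lines examined for a distant value, and chance alone would flag about 1 in 20 independent sets. The sets share lines and arrays, and the pair was chosen by its values, so that rate is no yardstick for these 2.

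CD38 was lower in every treated array of Ag09309 (-1.11 at 8 h and -0.74 at 36 h) and of HEP-G2 at 8 h (-0.41), while in 6 other lines it was higher in every treated array. BST1 was lower in every 8 h array of GM07019 (-0.24) and GM12878 (-0.21), against higher in HL60, Ag09309 and HEP-G2. The differences between these lines were not tested.

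At 36 h CD79A was lower in Ag09309 (-1.30) and higher in GM07019 (1.47), GM07348 (1.32), GM12878 (1.28) and GM10854 (1.13). ENTPD1 was lower in Ag09309 (-3.14) and higher in Ag09319 (1.29), and ITGB2 was lower in Ag09309 (-0.65) and higher in HL60 (1.23). These differences between lines were not tested either, and all values of Ag09309 rest on the 0 h arrays with high MS4A1.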

How the results depend on the processing

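Of the members' changes under all alternatives, 644 moved by less than 1 SD, 45 moved by more, and 3 turned in sign from a value above that SD. The SD was that between arrays for a single line and that between lines for means over lines. Values below the SD that turned in sign are counted among the 644 and 45. An example is CD38 in HEP-G2 at 36 h against 0 h, at -0.58 without replicate 1 and 0.42 without replicate 2. The CD38 mean over lymphoblastoid lines at 36 h ranged from 1.98 to 2.18. The 3 that turned in sign were 36 h minus 8 h differences. They were CD38 in Ag09309 (-0.031 without replicate 1, 0.79 without replicate 2) and HEP-G2 (-0.11 and 0.77), and BST1 in HL60 (0.46 and -0.0002). Among called list genes, LSM12 turned in Ag09319 in that comparison (1.24 and -0.0024). List genes called in single lines numbered 29, and 33 without replicate 1 and 9 without replicate 2. For 36 h minus 8 h they numbered 23, and 41 and 4 without replicates 1 and 2, 4 from the arrays of the line alone and 13 without the 3 arrays that stood apart. In the lymphoblastoid lines 2 were called at 36 h, and 1 among probe sets above the median level. For 36 h minus 8 h it was 2, and 1 with that filter or without GM10854. Over 9 lines 0 were called for 36 h minus 8 h, and 1 with the filter or without Ag09319. The contrast of lymphoblastoid with other lines gave 0, and 1 without Ag09309. Neighbouring genes numbered 3 in single lines, 0 with the filter, 4 without replicate 1 and 1 without replicate 2, and in the lymphoblastoid lines 0, and 1 with the filter. The cause was not tested, except that the filter and the left-out arrays change which probe sets and samples enter. Of the 5 closest genes by changes, 2 were shared with Spearman's rho for either member. Over changes and levels, with rho or without the 3 arrays that stood apart, 6 such checks counted as moved and 2 as the same. Without those arrays r with the CD38 changes was 0.90 for VPS37B, 0.83 for HIPK2, 0.88 for TLR6, 0.70 for RAC2 and 0.67 for TRAF3.

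Replicate numbers were not taken as a pairing, because the labels tie them to nothing shared and the correlations of same-numbered deviations were not all over 0.1 (14 of 27 were, range -0.414 to 0.585). In GM07348, GM12878 and K562 all 3 were, which is a hint from the data and not the design. With a replicate block 34 list genes were called in single lines, 24 for 36 h minus 8 h, and 3 neighbouring genes.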
